A study of Homo sapiens with 6 samples.

Results

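The genes described here encode the gamma-tubulin ring complex: MZT1, MZT2A, MZT2B, TUBG1, TUBGCP2 to TUBGCP6, and NEDD1, the factor that targets the complex. The 10 symbols were matched to Ensembl IDs, and all 10 were found among the 60664 genes of the count table and passed the filter on low counts that left 15867 genes to test. MZT1 was selected on its level in these libraries, where DESeq2 had called it higher in shJUP than in shNC. Its difference between the groups is therefore given as a description, with no test. The other 9 were taken as partners of MZT1 in the complex.

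RNA was sequenced from SKOV3 cells, a human line established from an ovarian carcinoma. There were 3 libraries labelled as JUP knockdown (shJUP 1 to 3, a short hairpin RNA) and 3 labelled as wild type with the control hairpin (shNC 1 to 3). JUP encodes plakoglobin, a protein of desmosomes and adherens junctions, and the series title places it upstream of PDGFB and JAK-STAT signalling. The labels call the replicates independent biological ones. They do not say how many hairpins or clones were used, so what loss of JUP does and what else the hairpin does cannot be told apart.

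Gamma-tubulin is the tubulin that starts new microtubules. The gamma-tubulin complex proteins (GCPs), encoded by the TUBGCP genes, arrange it into a ring that serves as a template, and the small MOZART proteins encoded by MZT1, MZT2A and MZT2B bind the GCPs. In human cells MZT1 is needed to bring the complex to the centrosome and NEDD1 anchors it there and on the spindle, so the complex is best known for building the spindle in mitosis.

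Library totals ranged from 17456121 to 19279514 estimated counts. Levels are given as CPM, the count relative to the library's total over the genes tested, after TMM scaling. Fold changes are shJUP over shNC on the log2 scale with the standard error (SE) of the edgeR fit. JUP stood at 39.9, 93.6 and 24.6 CPM in shJUP 1, 2 and 3, against 104, 133 and 101 CPM in shNC 1, 2 and 3. The groups did not overlap, but shJUP 2 came close to the controls. Its log2 fold change of -1.10 (SE 0.44) missed the threshold of the edgeR quasi-likelihood test (Benjamini-Hochberg adjusted p = 0.47), and with a block for the library number DESeq2 called it lower (-1.30, adjusted p = 0.048) while edgeR did not (adjusted p = 0.12). That edgeR test called 0 of 15867 genes, or 0%, with 1594 (10%) at an unadjusted p under 0.05 (5.17% higher and 4.87% lower in shJUP), and DESeq2 called 179 of the 15066 genes to which it gave an adjusted p, or 1.19%. Of 8 markers of the line and of epithelium 7 reached 1 CPM, led by ERBB2, KRT8 and PAX8, while MUC16 stayed at 0.24 CPM in shJUP and 0.25 CPM in shNC on average. EPCAM (mean 2.42 CPM in shJUP and 2.53 CPM in shNC) and WT1 (2.89 CPM in shJUP and 1.76 CPM in shNC) were low. Of 6 leukocyte markers 0 reached 1 CPM, and their summed level was 0.265 to 0.558 CPM in shJUP and 0.221 to 0.544 CPM in shNC. Of 6 fibroblast and endothelial markers 4 reached 1 CPM, with a summed level of 2.23, 15.0 and 2.50 CPM in shJUP 1, 2 and 3, against 4.37, 25.8 and 8.43 CPM in shNC 1, 2 and 3. The number-2 libraries thus stood apart on these markers, led by LUM (6.67 CPM in shJUP 2 and 15.5 CPM in shNC 2) and DCN (5.87 CPM in shJUP 2 and 7.54 CPM in shNC 2), and they were also the libraries in which JUP lay closest between groups. The part of these markers in the results below was not tested.

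MZT1 (ENSG00000204899, chromosome 13) encodes the smallest protein of the complex. It stood at 90.9, 70.5 and 75.8 CPM in shJUP 1, 2 and 3, against 20.1, 40.5 and 27.7 CPM in shNC 1, 2 and 3. The groups did not overlap, and number 2 held both the lowest shJUP library and the highest control. MZT1 averaged 79.1 ± 11 CPM across shJUP and 29.4 ± 10 CPM across shNC libraries (SD, n = 3 each), a log2 fold change of 1.43 (SE 0.25). Without both number-2 libraries it was 1.81. In these bulk libraries, more cells with MZT1 RNA and more RNA per cell cannot be told apart. The counts behind these levels were 1630, 1321 and 1428 in shJUP and 363, 762 and 510 in shNC.

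**Figure D1:**
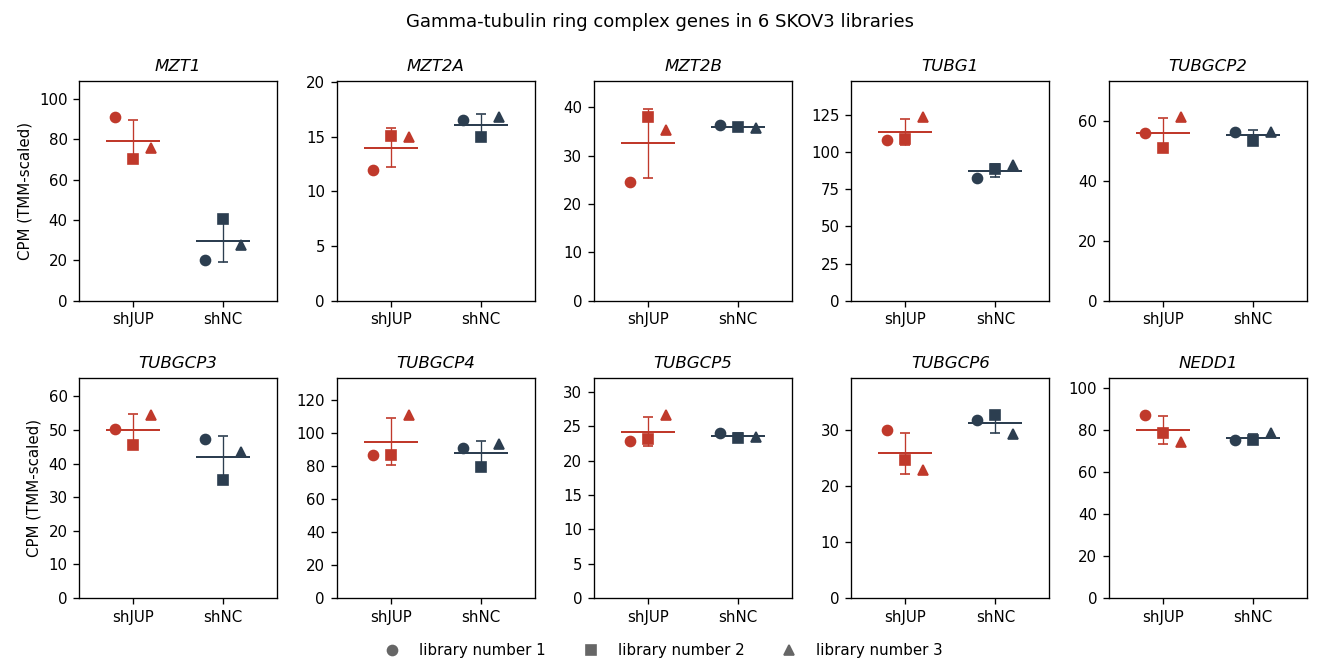
CPM of the 10 genes (vertical axes from 0, one scale per panel) in shJUP and shNC libraries. Each point is 1 library, its shape gives the library number, and lines show mean ± SD (n = 3). MZT1 and TUBG1 are the panels in which every shJUP point lies above every shNC point.

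Set against the control of the same number, MZT1 had a ratio of 4.53 for number 1 (95% counting interval 4.04 to 5.09). The ratio was 1.74 for number 2 (1.59 to 1.91) and 2.73 for number 3 (2.47 to 3.03). The intervals did not overlap, so the size of the difference varied between numbers by more than counting error. JUP had ratios of 0.384, 0.705 and 0.243 for numbers 1, 2 and 3. The number with the smallest difference in JUP, 2, was also the one with the smallest in MZT1, but the largest difference was at number 3 for JUP and at number 1 for MZT1. These intervals cover counting error only.

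Reads of MZT1 could in principle be split with its processed pseudogenes. MZT1P1 and MZT1P2 had 0 estimated counts in every library, and no annotated gene overlaps MZT1.

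The start of MZT1 lies next to that of another mitotic gene, so the neighbourhood shows whether the difference extended along the chromosome. BORA, which encodes an activator of the kinases Aurora A and PLK1 at entry into mitosis, is transcribed away from MZT1 on the opposite strand, with its RefSeq start 294 bases from that of MZT1. The windows of 250 bases before and 50 after the start of each gene share 207 bases. That window of MZT1 is printed below to show this shared stretch (RefSeq, GRCh38.p14, chr13:72727580-72727879, minus strand, read 5′ to 3′ along MZT1). The build of the count table is not given in the sources used here. Capitals mark matches to 3 motifs on either strand, which do not overlap one another.
MZT1: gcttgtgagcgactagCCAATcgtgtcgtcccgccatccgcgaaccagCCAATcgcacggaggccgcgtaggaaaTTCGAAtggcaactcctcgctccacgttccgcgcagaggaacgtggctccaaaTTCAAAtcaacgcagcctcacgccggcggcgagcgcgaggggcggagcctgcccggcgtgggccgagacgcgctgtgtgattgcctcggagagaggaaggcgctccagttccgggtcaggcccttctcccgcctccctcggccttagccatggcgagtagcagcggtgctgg

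The first motif is CCAAT, the core of the box bound by NF-Y. The second is TTTGAA, the core of the cell cycle genes homology region (CHR) found in promoters of genes used in mitosis. The third is TTCGAA, a variant of the CHR core. These motifs were chosen after the sequence had been seen. The MZT1 window holds 2 matches to the first motif and 1 to each of the others, and all 4 lie in the bases shared with BORA. Of 35116 RefSeq windows of this length, 34.6% hold the first motif, 15.2% the second and 1.45% the third. At least 2 CCAAT boxes together with a CHR core of either form occur in 1.91%. Windows were found for 9 of the 10 genes, the exception being TUBGCP4. Among the other members, CCAAT occurs 1 time each in MZT2A, MZT2B, TUBG1 and TUBGCP5, and none of the windows of these or of the other members besides MZT1 holds a CHR core of either form. A match is a description of these letters and not a site.

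BORA stood at 20.6, 17.5 and 16.5 CPM in shJUP 1, 2 and 3, against 20.9, 16.9 and 18.9 CPM in shNC 1, 2 and 3. The groups overlapped fully, with a log2 fold change of -0.05 (SE 0.15, edgeR adjusted p = 0.92). The ratio of MZT1 to BORA in CPM was 4.41, 4.03 and 4.59 in shJUP and 0.958, 2.40 and 1.47 in shNC. The following gene, DIS3, a catalytic subunit of the RNA exosome named here because of its place, was at 98.6 ± 3.8 CPM in shJUP, against 92.2 ± 8.5 CPM in shNC (SD, n = 3 each), a log2 fold change of 0.10 (SE 0.11, edgeR adjusted p = 0.78). After it comes PIBF1, a centriolar satellite gene, with 26.4, 27.4 and 25.4 CPM in shJUP and 15.8, 27.7 and 21.7 CPM in shNC. Its groups overlapped because of shNC 2 (log2 0.28, SE 0.20, edgeR adjusted p = 0.65). On the other side of MZT1 the nearest annotated gene, RNU6-80P, had 0 counts in every library, and the nearest protein-coding gene, DACH1, reached at most 2.02 CPM, in shNC 2, and was not tested.

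**Figure D2:**
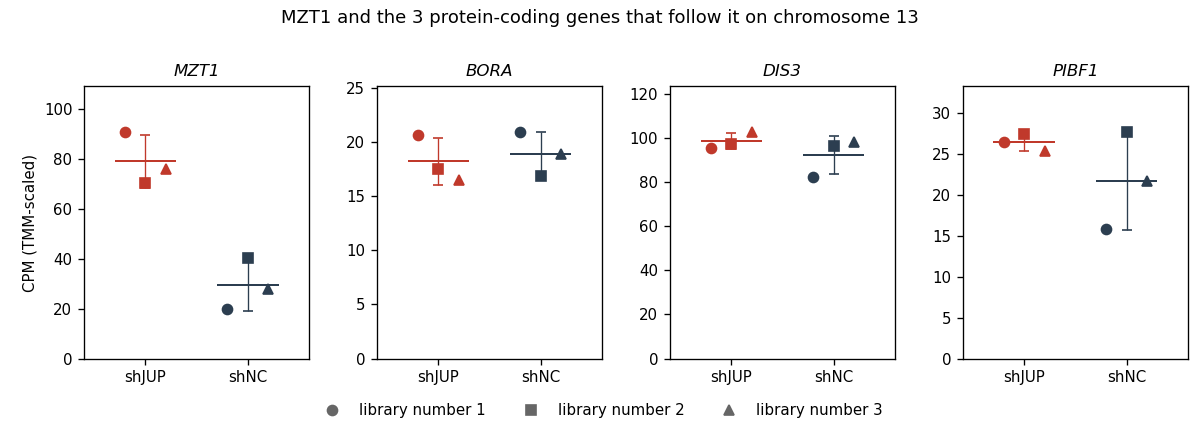
CPM (vertical axes from 0) of MZT1 and of BORA, DIS3 and PIBF1, in their order along chromosome 13, in shJUP and shNC libraries. Points are libraries, shapes their numbers, and lines mean ± SD (n = 3). The groups are apart for MZT1 and overlap for the 3 neighbours.

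TUBG1 (ENSG00000131462, chromosome 17) encodes gamma-tubulin itself, the main copy in most cells. It stood at 108, 109 and 123 CPM in shJUP 1, 2 and 3, against 82.7, 88.5 and 91.3 CPM in shNC 1, 2 and 3. All 3 shJUP values exceeded all 3 controls. A log2 fold change of 0.37 (SE 0.10) missed the threshold in edgeR (adjusted p = 0.40) and in DESeq2 (adjusted p = 0.17), but DESeq2 with a block for the library number called TUBG1 higher (0.38, adjusted p = 0.040). The same block in edgeR did not (adjusted p = 0.13), nor did DESeq2 without the number-2 pair (0.41, adjusted p = 0.11). The blocked DESeq2 test called 5.25% of the genes to which it gave an adjusted p. The ratio to the control of the same number was 1.30 (95% counting interval 1.22 to 1.39), 1.23 (1.15 to 1.31) and 1.35 (1.27 to 1.44) for numbers 1, 2 and 3, so it was similar in each.

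TUBG2, the other human gamma-tubulin gene, lay the other way. It stood at 12.8, 14.8 and 12.6 CPM in shJUP 1, 2 and 3, against 17.6, 21.1 and 16.4 CPM in shNC 1, 2 and 3, again without overlap (log2 -0.45, SE 0.15, edgeR adjusted p = 0.44). The coding transcripts of TUBG1 share 35.1% of their 31-base words with those of TUBG2, so the division of reads between the copies is uncertain. Their sum was 121, 123 and 136 CPM in shJUP and 100.4, 110 and 108 CPM in shNC, so it too was apart between the groups. The pseudogene TUBG1P had 0 counts in each shJUP library and 1 in each control. RETREG3 overlaps TUBG1 on the opposite strand, and strand use in counting is not known. RETREG3 was at 45.7 ± 4.6 CPM in shJUP, against 52.3 ± 5.9 CPM in shNC (SD, n = 3 each). Its groups overlapped (log2 -0.20, SE 0.13, edgeR adjusted p = 0.63), and its part in the counts of TUBG1 was not tested.

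The TUBGCP genes encode the proteins that hold gamma-tubulin in the ring. TUBGCP2 and TUBGCP3 form the small complex that is the repeating unit, whereas TUBGCP4, TUBGCP5 and TUBGCP6 are found only in the full ring. TUBGCP2 was at 56.0, 50.9 and 61.3 CPM in shJUP 1, 2 and 3, against 56.5, 53.4 and 56.3 CPM in shNC 1, 2 and 3. Its log2 fold change of 0.02 (SE 0.11) was far below its standard error. TUBGCP3 had 50.4, 45.4 and 54.6 CPM in shJUP, against 47.4, 35.2 and 43.5 CPM in shNC. It overlapped between groups at shJUP 2 and shNC 1, with a log2 fold change of 0.26 (SE 0.14, edgeR adjusted p = 0.59).

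Among the ring-specific GCPs, TUBGCP4 was at 86.9, 86.6 and 111 CPM in shJUP 1, 2 and 3, against 91.1, 79.5 and 93.3 CPM in shNC 1, 2 and 3 (log2 0.11, SE 0.14). The library shJUP 3 stood above the other 5. TUBGCP5 lay between 22.9 and 26.7 CPM in shJUP and between 23.3 and 24.0 CPM in shNC (log2 0.04, SE 0.12). TUBGCP6, the largest of the GCPs, had 30.1, 24.7 and 22.9 CPM in shJUP and 31.8, 32.8 and 29.3 CPM in shNC. Only shJUP 1 reached the control range, and the gene missed the edgeR threshold (log2 -0.27, SE 0.14, adjusted p = 0.56). The summed level of the 5 GCP genes was 246, 231 and 277 CPM in shJUP and 251, 224 and 246 CPM in shNC, and the groups overlapped.

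MZT2A and MZT2B are related copies on chromosome 2 and encode the other MOZART proteins, which bind TUBGCP2. MZT2A stood at 11.9, 15.1 and 14.9 CPM in shJUP 1, 2 and 3, against 16.5, 15.0 and 16.8 CPM in shNC 1, 2 and 3 (log2 -0.20, SE 0.15, edgeR adjusted p = 0.66). MZT2B was at 24.5, 37.9 and 35.3 CPM in shJUP, against 36.3, 36.0 and 35.7 CPM in shNC (log2 -0.15, SE 0.17, edgeR adjusted p = 0.79). For both, shJUP 1 was the lowest library, and without it MZT2B was at a log2 fold change of 0.03. The coding transcripts of MZT2A share 48% of their 31-base words with MZT2B, and those of MZT2B share 22.6% with MZT2A. The 2 genes are therefore uncertain one by one. Their sum was 36.4, 53.0 and 50.2 CPM in shJUP and 52.8, 50.9 and 52.5 CPM in shNC. In shJUP 1 MZT1 was therefore at its highest level and the MZT2 copies at their lowest.

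NEDD1 carries the ring to the centrosome and to spindle microtubules. It stood at 87.1, 78.2 and 74.2 CPM in shJUP 1, 2 and 3, against 75.2, 75.0 and 78.3 CPM in shNC 1, 2 and 3. The groups overlapped, with a log2 fold change of 0.07 (SE 0.10, edgeR adjusted p = 0.84).

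Of the 9 genes other than MZT1, the edgeR test called 0. At an unadjusted p under 0.05 there was 1, TUBG1, against 10% of all genes tested. DESeq2 and limma-voom called 0 as well. All shJUP libraries lay above all controls for 1 of the 9, against 8.39% of all genes tested, and below them for 0, against 8.65%. Their median log2 fold change was 0.04, against -0.01 over all genes tested, with 6 above 0 and 3 below. Over all genes tested 48.6% lay above 0. MZT2A, MZT2B, TUBG1, TUBGCP2 and TUBGCP4 each overlap an annotated gene on the other strand, which limits how firmly their counts can be assigned.

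**Figure D3:**
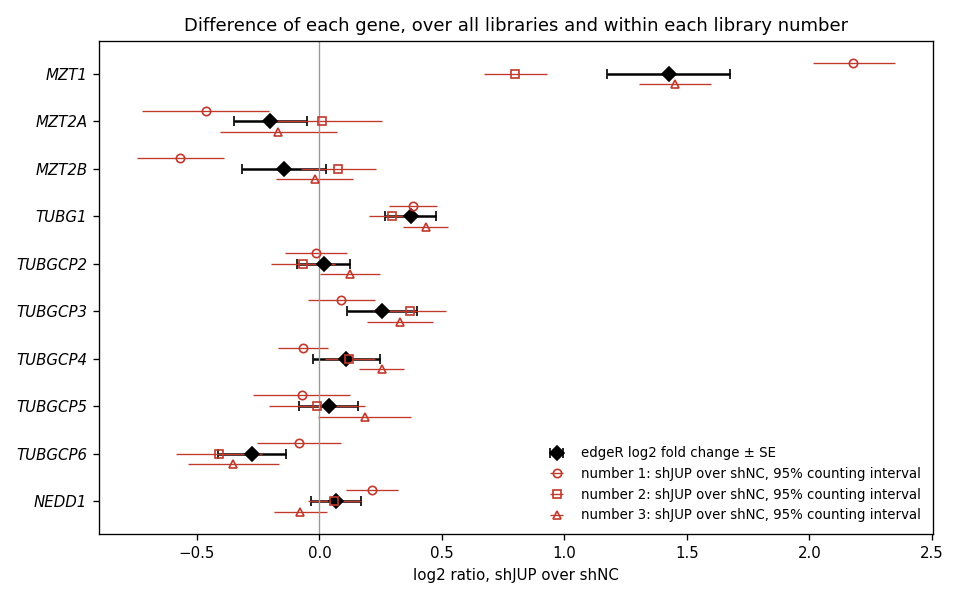
Log2 ratio of shJUP over shNC (horizontal axis) for the 10 genes. Black diamonds are edgeR log2 fold changes ± SE over 6 libraries, and open red symbols are ratios within each library number with 95% counting intervals. MZT1 lies between 0.80 and 2.18 in the 3 numbers and TUBG1 between 0.30 and 0.43. Of the others MZT2B (-0.57) and MZT2A (-0.46) at number 1 and TUBGCP6 (-0.41) at number 2 lie farthest from 0.

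Levels of different genes were compared per length, as CPM per kilobase of the median GENCODE protein-coding transcript. In shNC, TUBG1 was the highest at 54.3 ± 2.7 CPM per kilobase, then MZT2B at 42.3 ± 0.33, each apart from the next in every library (SD, n = 3). MZT2A (25.8 ± 1.5) and NEDD1 (24.1 ± 0.59) overlapped with each other. TUBGCP4 (18.7 ± 1.6), TUBGCP3 (15.4 ± 2.3), TUBGCP2 (13.8 ± 0.44) and MZT1 (12.8 ± 4.5) formed a run in which neighbours overlapped. TUBGCP5 (6.57 ± 0.11) and TUBGCP6 (5.36 ± 0.31) were the lowest and did not overlap. In shJUP, MZT1 had 34.4 ± 4.6 CPM per kilobase (SD, n = 3), which put it at place 3 of the 10, against place 8 in shNC. TUBG1 and MZT2B were at places 1 and 2 there by their means, but MZT2B (28.8 to 44.6) and MZT1 (30.7 to 39.6) overlapped. With the longest transcript of each gene in place of the median, MZT1 was at place 7 in shNC. MZT1 was selected on its difference between the groups, so its change of place is a description only.

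**Figure D4:**
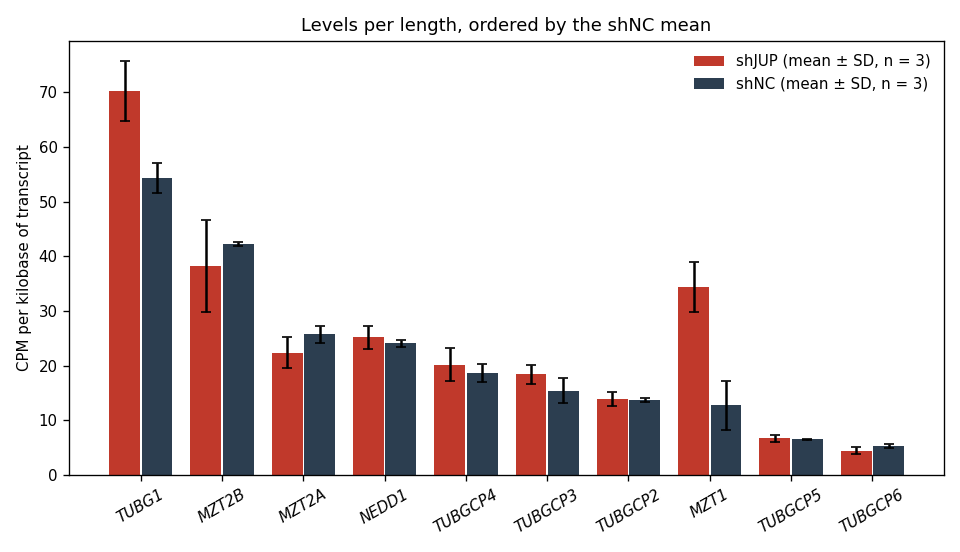
CPM per kilobase of transcript (vertical axis from 0) for the 10 genes, ordered by the shNC mean. Bars are means and error bars SD (n = 3), with shJUP to the left of shNC. MZT1 is at 34.4 in shJUP, against 12.8 in shNC, and TUBG1 at 70.3 in shJUP, against 54.3 in shNC.

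The pattern of MZT1 over the 6 libraries was compared with 11369 other genes of at least 5 CPM, as the root mean square difference in log2 CPM centred on each gene's mean. The nearest were S1PR1 (0.228), a receptor for sphingosine-1-phosphate, GSKIP (0.235), which binds the kinase GSK3, and GANAB (0.239), the catalytic subunit of an endoplasmic reticulum glucosidase. TMEM38B (0.256), an intracellular cation channel, and SERP1 (0.263), a protein of the endoplasmic reticulum translocon, came next. GSKIP, for example, stood at 49.99, 40.5 and 48.1 CPM in shJUP 1, 2 and 3, against 17.9, 25.7 and 20.7 CPM in shNC 1, 2 and 3. GANAB had 584, 641 and 628 CPM in shJUP and 195, 444 and 261 CPM in shNC. The nearest complex member was TUBG1 (0.629), at place 533, and the others lay between places 2481 and 9078. This measure includes the difference between the groups on which MZT1 was selected, so the places are a description only.

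Factors that recruit and activate the ring were read as a list of 12 genes, which also holds TUBG2. The edgeR test called 0 of them, and DESeq2 called 0. At an unadjusted p under 0.05, 0 were higher and 2 lower (AKAP9 and TUBG2), against 5.17% and 4.87% of all genes tested. All shJUP libraries lay below all controls for 3 of the 12 (AKAP9, TUBG2 and CEP192), against 8.65% of all genes tested. They lay above for 1 (NIN), against 8.39%. The median log2 fold change was 0.00. The scaffold genes CDK5RAP2 (98.7 ± 8.0 CPM in shJUP and 98.1 ± 1.4 CPM in shNC), PCNT (63.3 ± 12 CPM in shJUP and 65.3 ± 12 CPM in shNC) and PDE4DIP (50.5 ± 6.8 CPM in shJUP and 50.5 ± 3.6 CPM in shNC) were close to equal (SD, n = 3 each). AKAP9, a scaffold that holds the ring at the Golgi and centrosome, was at 40.3 ± 3.5 CPM in shJUP and 52.5 ± 2.2 CPM in shNC without overlap (log2 -0.38, SE 0.11, edgeR adjusted p = 0.40). NIN, which encodes ninein and anchors microtubule ends, was at 192 ± 20 CPM in shJUP and 160 ± 7.5 CPM in shNC, also without overlap (log2 0.26, SE 0.11). NINL was the gene that DESeq2 called with the block, lower in shJUP (log2 -0.65, adjusted p = 0.048), though its groups overlapped. The blocked DESeq2 test called 5.25% of the genes to which it gave an adjusted p.

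Augmin binds existing microtubules and brings the ring to their sides through NEDD1. Of its 8 subunits edgeR called 0, 1 was higher at an unadjusted p under 0.05 (5.17% of all genes tested were), and DESeq2 called 0. The median log2 fold change was 0.13, with 7 above 0, against 48.6% of all genes tested. HAUS6, the subunit that contacts NEDD1, was at 84.3 ± 18 CPM in shJUP, against 56.7 ± 2.0 CPM in shNC (SD, n = 3 each). Its log2 fold change of 0.57 (SE 0.17, edgeR adjusted p = 0.40) was the largest of the 8. By library it stood at 92.2, 97.1 and 63.8 CPM in shJUP 1, 2 and 3, against 55.7, 55.4 and 59.0 CPM in shNC 1, 2 and 3. The groups did not overlap, but shJUP 3 came close to the controls. DESeq2 called HAUS6 higher with the block (adjusted p = 0.037), and edgeR with the block did not (adjusted p = 0.16). That edgeR fit called 0 genes of any list. The blocked DESeq2 test called 5.25% of the genes to which it gave an adjusted p. HAUS8 (log2 0.20, SE 0.14) and HAUS2 (0.27, SE 0.24) overlapped between groups.

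Centriole duplication (13 genes) and centriolar satellite (11 genes) lists had 0 edgeR and 0 DESeq2 calls, and 1 of 13 and 2 of 11 genes were higher at an unadjusted p under 0.05, against 5.17% of all genes tested. Their medians were 0.07 and 0.13 on the log2 scale. CCP110, which caps centrioles, was at 46.5 ± 3.9 CPM in shJUP and 38.2 ± 2.5 CPM in shNC (log2 0.29, SE 0.12). CEP85 (0.34, SE 0.18) and STIL (0.37, SE 0.20), both of which act in centriole assembly, overlapped between groups. Of the satellite genes CEP20 (0.26, SE 0.11), SSX2IP (0.28, SE 0.12) and CEP72 (0.33, SE 0.15) lay above all controls in each shJUP library, 3 of 11 against 8.39% of all genes tested.

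The 13 tubulin chains had a median log2 fold change of 0.22, with 9 above 0, against 48.6% of all genes tested. EdgeR and DESeq2 called 0, with 1 higher at an unadjusted p under 0.05, against 5.17% of all genes tested. TUBB3, a beta-tubulin, was at 48.3 ± 7.7 CPM in shJUP and 36.3 ± 5.1 CPM in shNC (log2 0.41, SE 0.16). TUBB2A had 54.7 ± 14 CPM in shJUP and 33.4 ± 13 CPM in shNC (log2 0.71, SE 0.32), and its groups overlapped. DESeq2 with the block called TUBB2A higher (adjusted p = 7.5e-04), a test that called 5.25% of the genes to which it gave an adjusted p. Without the block, edgeR (adjusted p = 0.52) and DESeq2 (adjusted p = 0.36) did not call it. TUBB4B was at 447 ± 51 CPM in shJUP and 355 ± 74 CPM in shNC (log2 0.33, SE 0.17, SD with n = 3 each). The most abundant chains, TUBA1B (0.07, SE 0.21) and TUBB (0.11, SE 0.15), were near 0. TUBA1B stood at 2139, 1294 and 2088 CPM in shNC 1, 2 and 3, and TUBB6 at 211, 112 and 210 CPM. Without the number-2 pair, edgeR put TUBB4A at 0.05 (from 0.34), TUBB6 at 0.20 (from 0.34) and TUBB4B at 0.22 (from 0.33). TUBB2B instead rose from 0.69 to 0.95, and TUBB3 changed little (0.41 to 0.42). Among chains below 0, TUBA1A was at 135, 284 and 138 CPM in shJUP 1, 2 and 3, against 194, 269 and 269 CPM in shNC 1, 2 and 3 (log2 -0.39, SE 0.31). TUBA4A was at 71.9, 90.3 and 65.0 CPM in shJUP, against 101, 54.3 and 103 CPM in shNC (log2 -0.18, SE 0.25). In both genes shJUP 2 was the highest shJUP library, and without the number-2 pair DESeq2 called TUBA1A (-0.76, adjusted p = 0.0017) and TUBA4A (-0.57, adjusted p = 0.0060) lower and TUBB2A higher (0.62, adjusted p = 0.0088). That test called 4.51% of the genes to which it gave an adjusted p. Tubulin genes share reads, so single chains are uncertain. Of the 6 tubulin folding factors TBCE (0.42, SE 0.16) had the smallest p, followed by TBCD (0.17) and TBCEL (0.15), with a median of 0.11. Among these 6 edgeR and DESeq2 called 0, and 1 was higher at an unadjusted p under 0.05, against 5.17% of all genes tested.

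Lists for microtubule dynamics and the spindle (23 genes) and for mitosis (15 genes) held no edgeR call, with 4 and 2 genes higher at an unadjusted p under 0.05, against 5.17% of all genes tested. Medians were 0.16 and 0.15 on the log2 scale, with 18 and 14 genes above 0, against 48.6% of all genes tested. Some mitosis genes were lowest in shNC 2. MKI67 was at 580, 318 and 542 CPM in shNC 1, 2 and 3, and CCNA2 at 143, 75.6 and 137 CPM. Without the number-2 pair, CDK1 (-0.07), BUB1 (-0.002), BUB1B (-0.01), CENPF (-0.05) and NUSAP1 (-0.13) fell below 0 in edgeR. The other mitosis genes that had been above 0 stayed there, PRC1 (0.47) and TOP2A (0.41) farthest. PRC1, which bundles microtubules in the central spindle, was at 215 ± 17 CPM in shJUP, against 155 ± 11 CPM in shNC (SD, n = 3 each). Its log2 fold change was 0.47 (SE 0.11), and DESeq2 called it higher (adjusted p = 0.042). AURKA, the kinase that BORA activates, was at 126 ± 11 CPM in shJUP and 93.1 ± 16 CPM in shNC (log2 0.43, SE 0.15), and passed DESeq2 with the block (adjusted p = 0.017). CDC20, an activator of the anaphase-promoting complex, did so too (0.48, adjusted p = 0.0068 in the blocked DESeq2 fit), though its groups overlapped. Without the block neither passed DESeq2 (adjusted p = 0.29 for AURKA and 0.58 for CDC20). DESeq2 called 5.25% with the block and 1.19% without it, of the genes to which it gave an adjusted p. After dropping the number-2 pair DESeq2 called neither (adjusted p = 0.12 for AURKA and 0.083 for CDC20). TACC2 (0.36, SE 0.13), HMMR (0.33, SE 0.12) and TOP2A (0.35, SE 0.12) lay above all controls in each shJUP library. In the spindle list 6 of 23 genes did, and in the mitosis list 2 of 15, against 8.39% of all genes tested.

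**Figure D5:**
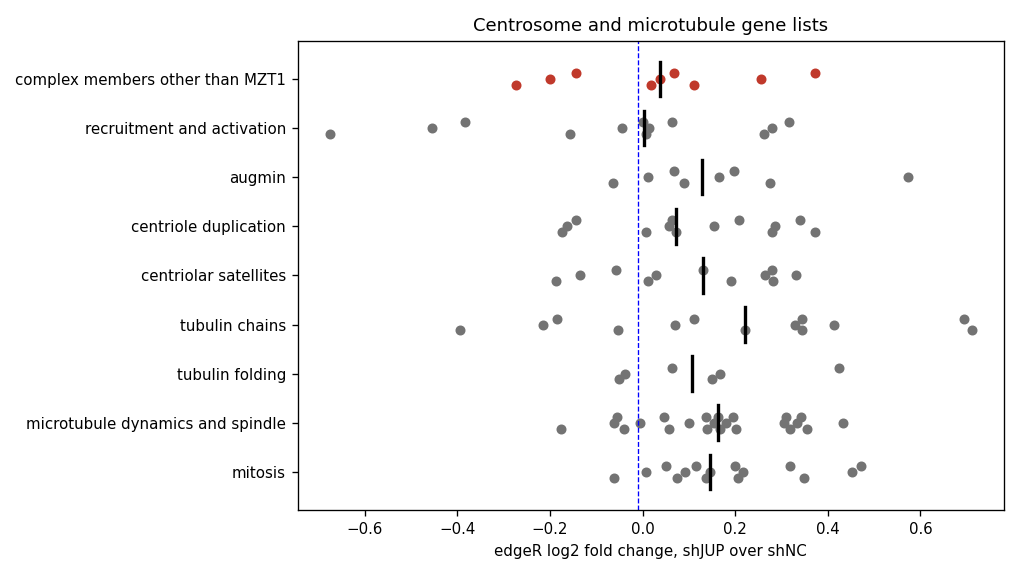
EdgeR log2 fold change of shJUP over shNC (horizontal axis) for the complex members other than MZT1 (red) and for 8 lists (grey). Each point is 1 gene, its small vertical offset carries no value, black bars are list medians, and the dashed line is the median of all genes tested (-0.01). The list medians run between 0.00 for recruitment factors and 0.22 for tubulin chains.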

How the data were processed

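The deposited table holds estimated counts per Ensembl gene for 6 libraries, made by the authors and not scaled between libraries. Per the labels' protocols, libraries came from oligo(dT)-selected RNA read on DNBSEQ. The submitters' processing notes name edgeR 3.32.1, DESeq2 1.26.0, STAR 2.7.9a and RSEM 1.3.3 without roles. For genome build, annotation and strand use, the sources used here give nothing. Of 60695 rows, 31 without a gene ID were left out, and 60463 of 60664 IDs matched a symbol. Of values above 0, 33.9% to 36.3% were not whole, and all were rounded.

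Groups came from the sample titles. The test was edgeR 4.0.16 in R 4.3.3 (filterByExpr, TMM, quasi-likelihood, two-sided, Benjamini-Hochberg over 15867 genes, threshold 0.05). SE was taken from the edgeR F statistic (size of the log2 fold change divided by the root of F). DESeq2 1.42.0 on all genes with a count and limma-voom 3.58.1 were alternatives, as were 2 other scalings, 2 filters, the replicate block, each library left out, and both number-2 libraries left out. The steps were tested on simulated data. Replicates of a group differed beyond sampling noise (mean chi-square 10.1 to 60.9 per gene). As a check of pairing, deviations from the group means were compared between same-numbered libraries. Their r was 0.14 for number 1, 0.51 for 2 and 0.20 for 3, all above 0.1. Numbers were therefore treated as pairs in the replicate block and the ratios by number, and not in the main test. Between different numbers r ran from -0.44 to 0.39, with shJUP 3 and shNC 1 (0.39) above the values of numbers 1 and 3, and shJUP 1 and shNC 3 (0.15) above that of number 1, so only number 2 stood apart. What a number stands for is not labelled.

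Members and lists were chosen with earlier results of these data known. Named genes were the members, JUP, TUBG2, member pseudogenes, neighbours of MZT1, the 3 genes of each list with the smallest p, and the 5 most like MZT1. Other genes named were chosen after their values were seen. Lengths are from GENCODE release 29 (basic set) and promoter windows from RefSeq.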

Additional observations from a re-analysis of the deposited data

How the results depend on the processing

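With 1 library left out in turn, edgeR called 0 genes in the whole table, 0 members and 0 list genes, and JUP ranged from -1.80 (without shJUP 2) to -0.75 (without shJUP 3). The number of genes called in the whole table was 179 by DESeq2, 696 by DESeq2 and 1 by edgeR under the replicate block, 5 by edgeR with no filter, and 0 in the other settings of all 6 libraries. Dropping the number-2 pair gave 49 by edgeR and 643 by DESeq2. The 8 lists held 12, 8, 13, 11, 13, 6, 23 and 15 tested genes. Of these list genes, DESeq2 called 1, or 6 under the replicate block and 4 after dropping that pair. The same 3 tests called 1.19%, 5.25% and 4.51% of all genes to which they gave an adjusted p. With the replicate block in DESeq2, 1 member other than MZT1 was called (TUBG1, 0.38) and JUP passed at -1.30. After dropping the pair JUP also passed in DESeq2, at -1.66. The block changed no other call among the members tested. MZT1 ranged from 1.21 to 1.72 with 1 library left out and was 1.81 by either tool without the number-2 pair. Members that turned direction with 1 library left out were MZT2B (-0.27 to 0.027, positive without shJUP 1), TUBGCP2 (-0.053 to 0.082, negative without shJUP 3 or shNC 2), TUBGCP4 (-0.021 to 0.17) and TUBGCP5 (-0.039 to 0.081), the last 2 negative without shJUP 3. Without turning, MZT2A was at -0.095 and NEDD1 at 0.0048 without shJUP 1, NEDD1 at 0.12 without shJUP 3, and TUBGCP3 at 0.14 without shNC 2. TUBG1 stayed between 0.31 and 0.42 in all 16 settings. The cause was not tested. The lowest member count in any library was 214, for MZT2A in shJUP 1.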
